A study of Mus musculus with 4 samples.

Results

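The regions described here are the distal flanks of the 4C-seq profile made from a viewpoint that the labels name by the gene Il1a. They comprise the 1800 profile positions lying more than 100 kb from the middle of the profile, out of 2001 positions in the Il1a profile and 4002 over both viewpoints of the series. Membership was set by distance alone and not by contact. The lower flank has 900 positions from 128153157 to 129052157 and the upper flank 900 positions from 129254157 to 130153157, in mm9 coordinates of chromosome 2, with 129153157 as the middle. The deposited profiles name no chromosome, so chromosome 2 follows from the named gene. In the RefSeq annotation of GRCm38.p6, which is another build and was read for gene order only, the next protein-coding genes below Il1a are Ckap2l, Slc20a1, Chchd5 and Polr1b. Above it follow Il1b, F830045P16Rik, Sirpa, Pdyn, Stk35 and Tgm3. Which of these genes lie inside a flank was not determined, because no mm9 annotation was used here.

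In circular chromosome conformation capture (4C-seq), chromatin is cross-linked, cut and ligated, and the DNA joined to a chosen fragment is amplified by inverse PCR and sequenced. Contact with the viewpoint usually falls steeply close to it and then levels off into a tail, on which loops or domain borders can stand out as local rises or steps. Il1a encodes interleukin 1 alpha, a cytokine of the early inflammatory response, and Il1b encodes its relative interleukin 1 beta. Both are strongly induced when macrophages sense bacterial lipids. Enhancers can act on promoters over large distances within a chromatin domain. The stated aim of the series was to look for contacts of this kind, between enhancers of macrophages that carry marks beforehand and their promoters.

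Each group had 1 library. The first came from mouse embryonic stem cells (ESC) of the line 46c, grown without feeders in medium with 15% serum and 1000 units/ml LIF. The second came from peritoneal macrophages of female C57BL/6J mice aged 6 to 8 weeks, elicited with thioglycollate 3 to 4 days before collection, cultured overnight and given KLA, a lipid used to mimic bacterial stimulation, for 1 h. The cross-link was made with 1% formaldehyde, HindII served as the first enzyme and DpnII as the second, and about 16 PCR reactions were run for a viewpoint. The labels do not say how many mice were used or whether their cells were pooled. No macrophage library without KLA was analysed here, so cell type and KLA cannot be told apart in any difference below. The files hold no gene expression, so cell identity was not checked against markers.

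Contact is given as the central signal of 10 kb windows, divided in each library by that library's own median 500 to 900 kb from the middle. A value of 1 is therefore the far level of the same library, and positions at 500 to 900 kb centre on 1 by construction. The authors' profiles are relative to the highest 2 kb window of each library, so the 2 libraries cannot be compared in absolute contact. Read depth is unknown. With 1 library per group no test was possible, and every difference below compares 2 libraries without replicate error. Each window also has a deposited lower and upper bound, read here as the spread inside the window. In 10 kb windows the median upper bound was 2.63 times the central value in each flank of ESC and 1.41 times in each flank of the macrophages, on signal plus a constant offset. That offset is larger in macrophages, so these 2 factors are not directly comparable. In units of the far median, the median upper bound was 3.26 and 3.25 in the lower and upper flank of ESC. In macrophages it was 2.31 and 2.33. The lower bound was at or below 0 in 2.23% and 3.02% of ESC windows and in 20% and 21.6% of macrophage windows. The bounds of the 2 libraries overlapped at 100% of the 895 measured positions of each flank. The bounds are wide against the differences in central value and are not replicate error, so this overlap cannot show whether the libraries differ. The 5 outermost positions of each flank have no complete 10 kb window.

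Both flanks lay near the far level in both cell types. The median contact of the lower flank was 1.03 in ESC and 1.01 in macrophages, and that of the upper flank was 1.03 in ESC and 1.02 in macrophages. Within 10 kb of the middle it was 2.03 in ESC and 2.43 in macrophages, and within 100 kb 1.19 and 1.23. The log2 ratio of the upper over the lower flank was -0.0019 in ESC and 0.018 in macrophages. A ratio of flanks is taken inside a library and does not depend on how libraries are scaled. At the border of the rule, the lower side had 0.474 in ESC and 0.611 in macrophages at 100 kb, just outside the flank, and 0.600 and 0.604 at the next position outward, just inside it. On the upper side the values were 1.12 and 0.979 at 100 kb and 1.04 and 0.938 at the next position.

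By bands of 100 kb, median contact was highest in the innermost band in the upper flank but not in the lower flank. The upper-flank median in ESC was 1.10 at 100 to 200 kb, 1.09 at 200 to 300 kb, 1.05 at 300 to 400 kb and 1.02 at 400 to 500 kb. In macrophages the same bands had 1.08, 1.05, 1.05 and 1.02. Beyond 500 kb the upper bands stayed between 0.942 and 1.03 in ESC and between 0.983 and 1.03 in macrophages. Fitted on log2 distance, log2 contact in the upper flank had a slope of -0.069 in ESC and -0.044 in macrophages, a factor of 0.953 and 0.970 for each doubling of distance. At the Tnfaip3 viewpoint the slope was -0.043 in ESC and -0.104 in Raw 264.7 cells, a macrophage-like mouse line also given KLA, in the upper flank, and 0.0081 and -0.021 in the lower flank.

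In the lower flank of ESC, contact was 1.01 at 100 to 200 kb, rose to 1.13 at 200 to 300 kb and 1.18 at 300 to 400 kb, and was 0.955 at 400 to 500 kb. In macrophages these bands had 0.988, 1.07, 1.05 and 0.969. Positions at 300 to 400 kb varied widely, with quartiles of 0.931 and 1.39 in ESC and 0.945 and 1.22 in macrophages. The highest bands of this flank were therefore not the nearest ones in either library. From 600 kb outward the medians increased slightly, from 0.947 at 600 to 700 kb to 1.05 at 900 to 1000 kb in ESC and from 0.971 to 1.04 in macrophages. The slope over the whole lower flank was -0.023 in ESC and -2.35e-05 in macrophages. Beyond 200 kb it was -0.074 in ESC, close to the -0.072 of the upper flank, and -0.025 in macrophages against -0.041. Distances run from the profile middle, as the sources used here give no viewpoint position, and the highest 2 kb window of ESC lay 8 kb above it. Counted from that window, the slope was -0.0096 in ESC and 0.0067 in macrophages in the lower flank, and -0.078 and -0.051 in the upper flank. At equal distance from the profile middle, the upper flank was higher in 4 of 9 bands in ESC and in 5 of 9 in macrophages, and the 2 libraries had the same side higher in 8 of the 9 bands. The log2 ratio of upper over lower was 0.13 at 100 to 200 kb in both libraries. At 300 to 400 kb it was -0.17 in ESC and -0.0042 in macrophages.

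**Figure D1:**
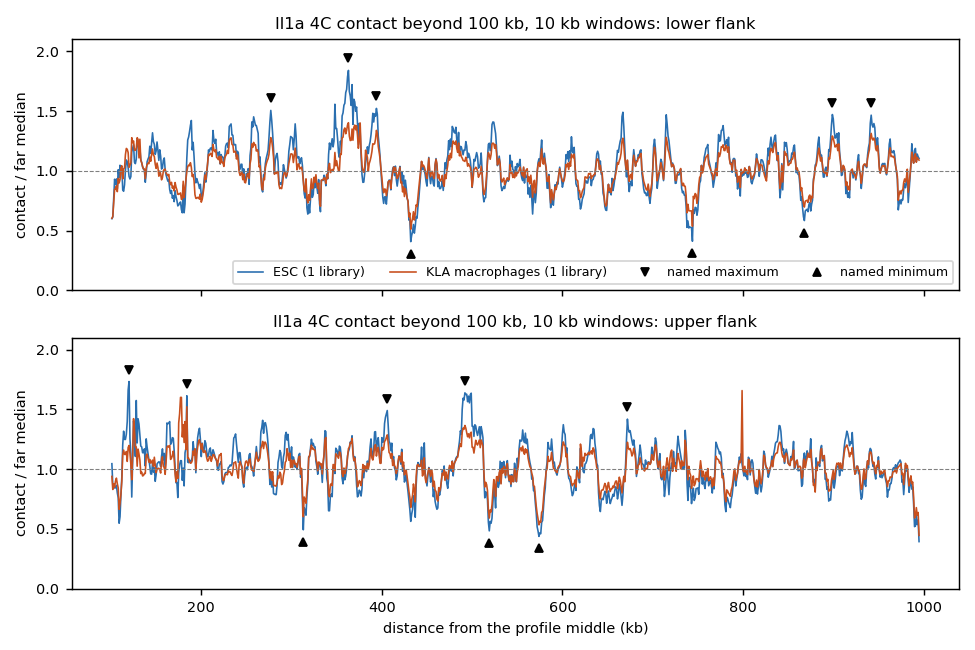
Contact in 10 kb windows (y axis, in units of the far median of each library) against distance from the profile middle (x axis, kb) for the lower flank (top) and the upper flank (bottom); each line is 1 library and the triangles mark the named local maxima and minima. Both libraries move along nearly the same rises and dips, with larger swings in ESC, from 0.408 to 1.84 in the lower flank against 0.511 to 1.40 in macrophages.

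The widest windows gave the outline of these flanks. In 49 kb windows, the leading maximum of the lower flank lay at 128779157, 374 kb from the middle, with 1.39 in ESC and 1.22 in macrophages. Next came 128911157, at 242 kb, with 1.21 and 1.12, and 128654157, at 499 kb, with 1.18 and 1.10. Between the first and the last of these lay the leading broad minimum of this flank, at 128732157 and 421 kb, with 0.804 in ESC and 0.848 in macrophages. These centres were ranked on the mean of both libraries. In ESC alone the highest value of the lower flank was 1.41, at 371 kb, and the lowest 0.804, at 423 kb.

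In the upper flank the broad maximum lay at 129641157, 488 kb from the middle, with 1.28 in ESC and 1.18 in macrophages. The next broad maxima were at 129337157, 184 kb away, with 1.20 and 1.15, and at 129256157, near the inner edge of the flank, with 1.23 and 1.12. The leading broad minima had 0.829 in ESC and 0.897 in macrophages at 129919157, 766 kb away, and 0.839 and 0.891 at 129604157, 451 kb away. Stretches 10% or more above the far level in both libraries covered 60 of 876 positions in the lower flank and 92 of 875 in the upper flank. The longest ran from 128768157 to 128797157 in the lower flank, with medians of 1.32 in ESC and 1.16 in macrophages. In the upper flank the longest ran from 129629157 to 129668157, with medians of 1.22 and 1.15. Stretches 10% or more below it in both libraries covered 33 positions in the lower flank and 4 in the upper flank.

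**Figure D2:**
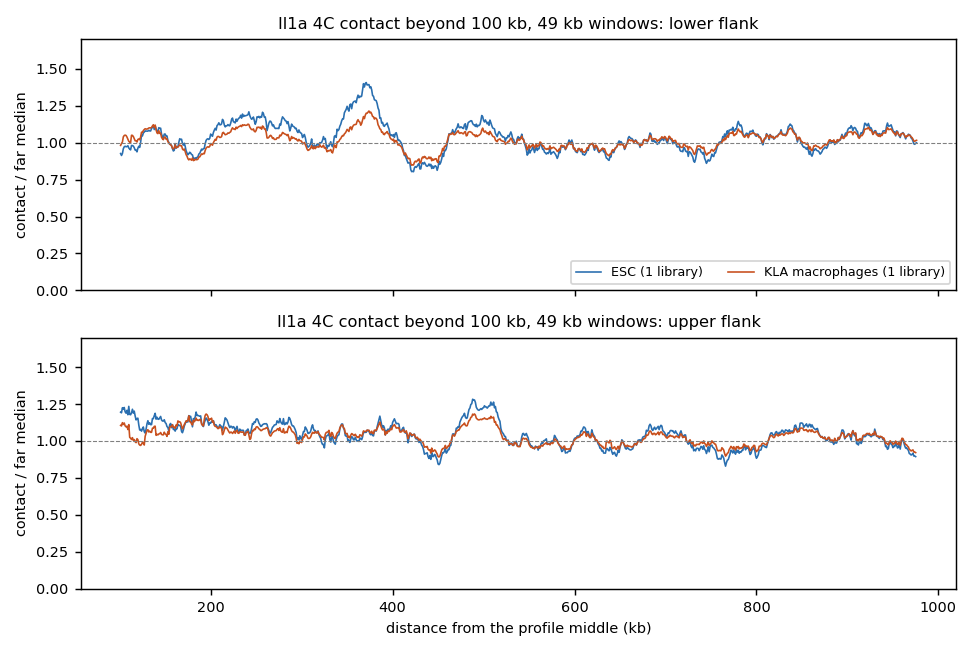
Contact in 49 kb windows (y axis, in units of the far median of each library, from 0) against distance from the profile middle (x axis, kb), lower flank on top and upper flank below, 1 line per library. At 374 kb in the lower flank the broad rise stands at 1.39 in ESC and 1.22 in macrophages, and at 488 kb in the upper flank at 1.28 and 1.18.

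At 10 kb resolution, 5 local maxima and 3 local minima were described in each flank, taken at least 20 kb apart from the mean log2 contact of both libraries. In the lower flank the maxima ranged from 1.47 to 1.84 in ESC and from 1.28 to 1.40 in macrophages. The highest was the window from 128785157 to 128795157, centred 363 kb from the middle, with 1.84 in ESC and 1.40 in macrophages. It lies inside the broad rise described above and was also above the far level in 5 kb windows, with 1.66 and 1.26, and in 20 kb windows, with 1.54 and 1.26. The second, 394 kb away at 128759157, had 1.52 in ESC and 1.34 in macrophages. The others lay at 942 kb (1.47 and 1.31), 277 kb (1.51 and 1.28) and 899 kb (1.47 and 1.29). All 5 were above the far level in 5, 20 and 49 kb windows in both libraries.

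The lower flank also held the deepest of the named minima. Contact at 128721157, 432 kb away, was 0.408 in ESC and 0.511 in macrophages. At 128409157, 744 kb away, it was 0.411 and 0.537, and at 128285157, 868 kb away, 0.584 and 0.697. All 3 dips were below the far level in all 48 window widths in both libraries.

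Of the 5 maxima of the upper flank, 2 were above the far level in 5, 20 and 49 kb windows in both libraries. All 5 together ranged from 1.42 to 1.73 in ESC and from 1.20 to 1.52 in macrophages. Contact at 129645157, 492 kb away, was 1.64 in ESC and 1.36 in macrophages, and that at 129559157, 406 kb away, 1.49 and 1.29. The windows 1 kb to either side of the 492 kb maximum were nearly as high, with 1.58 and 1.62 in ESC. The 492 and 406 kb regions were above the far level in all 48 widths in both libraries. At 129825157, 672 kb away, contact was 1.42 and 1.22, and in 49 kb windows 1.01 and 0.996. The remaining maxima, at 129337157 and 129273157, were high in 10 kb windows and low in 5 kb windows. The first, 184 kb away, had 1.61 in ESC and 1.52 in macrophages in 10 kb windows, but 0.575 and 0.745 in 5 kb windows. Both positions next to it were lower, with 1.17 in both libraries at 183 kb in the upper flank, and 1.06 in ESC and 1.09 in macrophages at 185 kb. In macrophages it was not isolated, since contact was 1.40 at 182 kb and 1.60 at 177 and 178 kb. ESC had 1.14 at 182 kb and 1.07 at 177 and 178 kb. The second, 120 kb away, had 1.73 and 1.20 in 10 kb windows, but 0.538 and 0.683 in 5 kb windows. These 2 windows held 6 and 4 empty 2 kb windows, that is, windows in which neither library has a value above 0, read here as holding no fragment end. Their part in the high values was not tested.

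The 3 minima of the upper flank lay at 129727157, 574 kb away, with 0.436 in ESC and 0.533 in macrophages, at 129672157, 519 kb away, with 0.483 and 0.589, and at 129466157, 313 kb away, with 0.492 and 0.601. The last 2 were above the far level in 49 kb windows, with 1.09 and 1.05 for the second and 1.08 and 1.05 for the third, so these dips were narrow. Contact was lower still at the last measured position, 130148157 and 995 kb away, with 0.393 in ESC and 0.444 in macrophages. That position is at the edge of the profile and could not be taken as a local minimum.

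**Figure D3:**
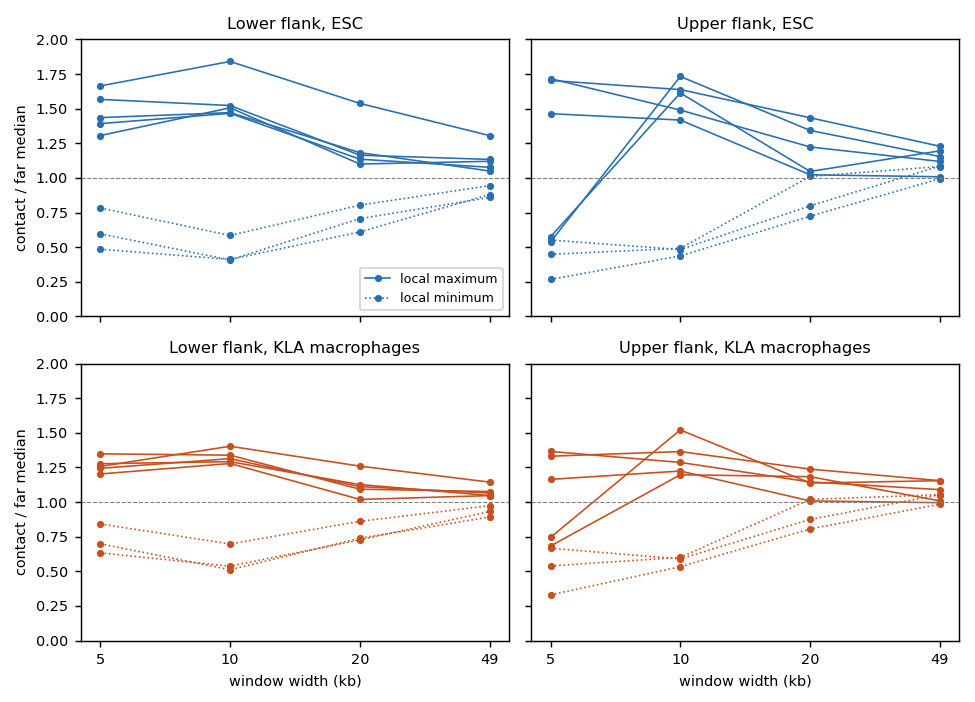
Contact of the named local maxima (solid lines) and minima (dotted lines) in windows of 5, 10, 20 and 49 kb (x axis) in units of the far median (y axis), for the lower (left) and upper flank (right) in ESC (top) and macrophages (bottom), 1 line per region. In the lower flank all maxima stay above 1 and all minima below 1 at these widths, whereas 2 upper maxima drop to 0.575 and 0.538 in 5 kb windows of ESC.

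The layout of fragment ends differed between the flanks. Of 899 2 kb windows in each flank, 38 (4.23%) were empty in the lower flank and 77 (8.57%) in the upper flank, at the same positions in both libraries. The longest empty stretch had 7 positions in each flank, at 128306157 to 128312157 in the lower and 129274157 to 129280157 in the upper flank. There were 3 empty stretches of 3 or more positions in the lower and 8 in the upper flank. Where a 10 kb window held 3 or more empty 2 kb windows, contact over both flanks together varied more than elsewhere. The standard deviation of log2 contact was 0.388 in ESC and 0.282 in macrophages at such positions, against 0.288 and 0.199 at 1303 positions with no empty window. In the upper flank it was 0.369 and 0.295 at 85 such positions, against 0.278 and 0.189. In the lower flank it was 0.326 and 0.205 at 31 such positions, against 0.296 and 0.208, so macrophages did not vary more there. Median contact at those 31 positions was 1.24 in ESC and 1.16 in macrophages, against 1.02 and 1.01 with no empty window. Of the 10 named maxima, 3 held 3 or more empty windows and 5 held none.

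The 2 libraries had much the same relief in each flank. Across 895 positions, log2 contact of ESC and macrophages had a Spearman coefficient of 0.945 and a Pearson coefficient of 0.952 in the lower flank, and 0.919 and 0.926 in the upper flank. These coefficients describe the profiles and carry no p-value, since neighbouring windows overlap and both libraries have the same fragment ends. Some pairs of values also recurred exactly in windows that do not overlap. In the lower flank, 0.873 in ESC and 0.936 in macrophages stood at both 450 and 417 kb. The part of fragment layout and processing in the coefficients was not tested. Taking every 10th position, so that windows do not overlap, gave Spearman coefficients from 0.924 to 0.954 in the lower flank and from 0.862 to 0.951 in the upper flank over the 10 possible starts. Over the 48 widths the Spearman coefficient lay between 0.922 and 0.972 in the lower flank and between 0.874 and 0.980 in the upper flank. For comparison, the lower and upper flank set against each other at equal distance had a Spearman coefficient of 0.014 in ESC and 0.0041 in macrophages. Within 100 kb of the middle the Spearman coefficient between the cell types was 0.781 and the Pearson coefficient 0.912 over 199 positions. Between ESC and Raw 264.7 cells at the Tnfaip3 viewpoint the Spearman coefficient was 0.887 in the lower and 0.945 in the upper flank. Contact at the Il1a and Tnfaip3 viewpoints, set against each other at the same signed distance, had coefficients of 0.068 and 0.081 in the lower and upper flank of ESC. Between the macrophage and Raw 264.7 libraries they were 0.124 and 0.103. The comparisons between flanks and between viewpoints pair different DNA with different fragment ends. They therefore cannot separate a shared fragment layout from shared contact.

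Relief was shallower in macrophages than in ESC in both flanks. The standard deviation of log2 contact was 0.307 in ESC and 0.214 in macrophages in the lower flank, and 0.297 and 0.209 in the upper flank. The macrophage library thus had 0.699 and 0.703 times the standard deviation of the ESC library. The quartiles of contact in the lower flank were 0.899 and 1.17 in ESC and 0.925 and 1.11 in macrophages, and in the upper flank 0.895 and 1.15 in ESC and 0.935 and 1.10 in macrophages. All 10 named maxima were higher in ESC, by log2 ratios of macrophages over ESC from -0.53 to -0.085, and all 6 named minima were lower in ESC, by 0.26 to 0.39. In the 10% of positions with the highest ESC contact, macrophages were lower at 89 of 90 positions in the lower flank and 88 of 90 in the upper flank. In the 10% with the lowest ESC contact they were higher at 89 of 90 and 90 of 90 positions. These positions were chosen on ESC contact itself, which partly sets the direction. The named regions were extremes of the mean log2 contact of both libraries. Their direction therefore follows in part from the wider spread of ESC and adds little to it.

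The constant offset of the profiles differed between these libraries. The offset, found from each window's central value and bounds, was 0.351 times the far median in ESC and 2.13 times in macrophages. The Tnfaip3 profiles had offsets of 0.0949 times the far median for ESC and 0.135 times for Raw 264.7 cells, and the flanks of the Raw 264.7 library had 0.929 and 0.941 times the standard deviation of ESC in the lower and upper flank. Within 100 kb of the middle, the standard deviation in macrophages was 1.01 times that in ESC in 10 kb windows. It was 0.772 times in 5 kb windows and 1.15 times in 49 kb windows. The part of the offset in the shallower relief of the macrophage library was not tested. The standard deviation in macrophages was below that in ESC in 47 of 48 widths in the lower flank and in 45 of 48 in the upper flank. The exceptions were 2 kb windows in the lower flank, at 1.05 times, and 2, 3 and 4 kb windows in the upper flank, at 1.05, 1.07 and 1.06 times.

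**Figure D4:**
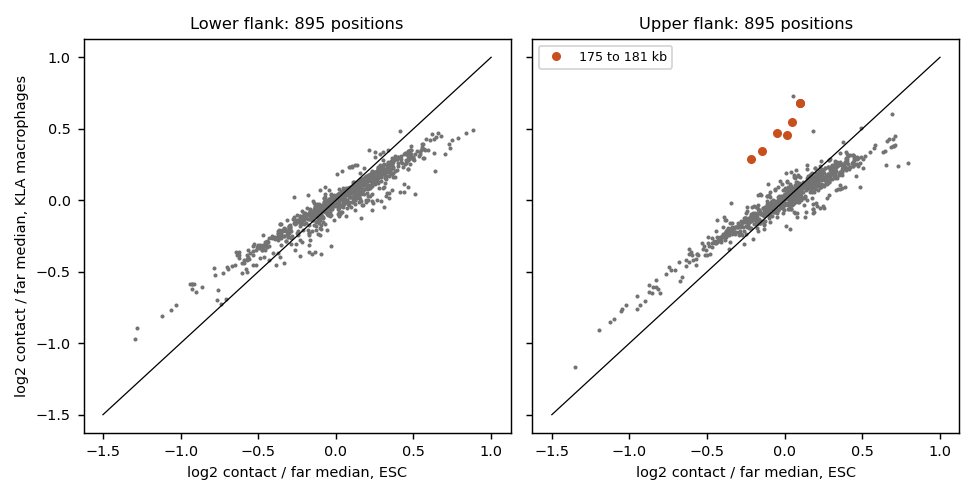
Each point is 1 position of the lower (left) or upper flank (right), with log2 contact relative to the far median in ESC (x axis) and in macrophages (y axis), in 10 kb windows; the line marks equal values. The points follow a slope of 0.665 in the lower and 0.651 in the upper flank, flatter than the line of equal values, and the 7 marked positions 175 to 181 kb away in the upper flank lie above the bulk of the points (2 of them coincide).

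In 10 kb windows, few positions of the flanks differed between the cell types by 25% or more. The shallower relief of macrophages is not removed from these counts. Macrophages over ESC gave a median log2 ratio of -0.019 in the lower flank and 0.0019 in the upper flank, and its central 95% ran from -0.28 to 0.22 and from -0.26 to 0.26. The scaling sets the far level of both libraries to 1, so these medians lie near 0 in part by construction. At 1.5-fold or more, 0 positions of the lower flank and 1 of 895 positions of the upper flank (0.112%) were higher in macrophages, against 0.151% of the 1989 positions of the whole Il1a profile. Higher in ESC at this fold were 0 positions in each flank, as in the whole profile (0%). Macrophages were higher by 25% or more at 6 positions of the lower and 9 of the upper flank (0.670% and 1.01%), against 1.56% of the whole profile. ESC was higher by 25% or more at 14 positions of the lower and 4 of the upper flank (1.56% and 0.447%), against 1.46% of the whole profile. The whole profile includes the flanks, and within 100 kb of the middle 13.6% of 199 positions passed this threshold in either direction. Of the 33 flank positions past 25% in either direction, 15 had 3 or more empty 2 kb windows, 12.9% of the positions of that kind, whereas 9 had none, 0.691% of that kind. More positions passed 25% in 2 kb windows. There ESC was higher at 188 of 861 positions of the lower and 156 of 822 of the upper flank. Macrophages were higher at 26 and 38. Within 100 kb of the middle, ESC was higher at 40 of 183 positions and macrophages at 8. These shares are similar to those of the flanks, so the counts in 2 kb windows do not set the flanks apart. Some 2 kb values lie close to 0, such as 0.0052 in macrophages at 129327157 in the upper flank.

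The largest ratio in the flanks was at a single position. At 129952157, 799 kb above the middle, macrophages had 1.66 and ESC 1.04, a log2 ratio of 0.67. One kilobase below, the values were 1.09 in macrophages and 1.13 in ESC, and one kilobase above 0.990 and 0.992. At the same position macrophages had 0.998 in 9 kb windows, 1.61 in 11 kb windows and 1.07 in 12 kb windows. The upper bound of the macrophage window was 11.6 times the far median, against 2.41 and 2.28 at its neighbours. The difference was therefore seen at 1 position and in 10 and 11 kb windows, but not in those of 8, 9 and 12 kb.

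In the upper flank macrophages were higher over 7 positions in a row, from 129328157 to 129334157, 175 to 181 kb from the middle. Mean contact was 1.42 in macrophages and 0.988 in ESC, a mean log2 ratio of 0.52. The highest values, 1.60 in macrophages against 1.07 in ESC, stood at 129330157 and 129331157. The run adjoins the maximum at 129337157, and its windows held 2 to 6 empty 2 kb windows. On signal plus the constant offset, the upper bound was 1.82 to 2.24 times the central value in macrophages in this run, against the typical 1.41. In ESC it was 3.46 to 4.16 times, against the typical 2.63, so the bounds were wide in both libraries. The mean log2 ratio of the run was 0.37 in 5 kb windows, where 6 of 7 positions had a value, 0.23 in 20 kb windows and -0.013 in 49 kb windows. After the line of macrophage on ESC contact was removed from each flank, 9 positions of the upper flank were past 25%, all higher in macrophages, and 8 of these formed the run from 129328157 to 129335157. In the lower flank 0 positions were past 25% after this step, against 20 without it. The line was fitted to these same positions, so a lower count follows in part from the fit itself. The standard deviation was 0.122 for the log2 ratio and 0.066 after the step in the lower flank, and 0.130 and 0.079 in the upper.

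In the lower flank the runs past 25% lay on a maximum and on a minimum. ESC was higher over 6 positions from 128788157 to 128793157, 360 to 365 kb away, with a mean contact of 1.71 against 1.33 in macrophages and a mean log2 ratio of -0.36. This run covers the highest maximum of the flank, whose window held 3 empty 2 kb windows, and the windows of the run held 0 to 5. The log2 ratio was -0.34, -0.30 and -0.20 in 5, 20 and 49 kb windows. Macrophages were higher over 5 positions from 128409157 to 128413157, 740 to 744 kb away, with 0.640 against 0.503 and a mean log2 ratio of 0.35. This run lies at the minimum 744 kb away and held 0 empty 2 kb windows, and its log2 ratio was 0.34, 0.21 and 0.065 in 5, 20 and 49 kb windows. No run of 5 or more positions was higher in ESC in the upper flank.

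**Figure D5:**
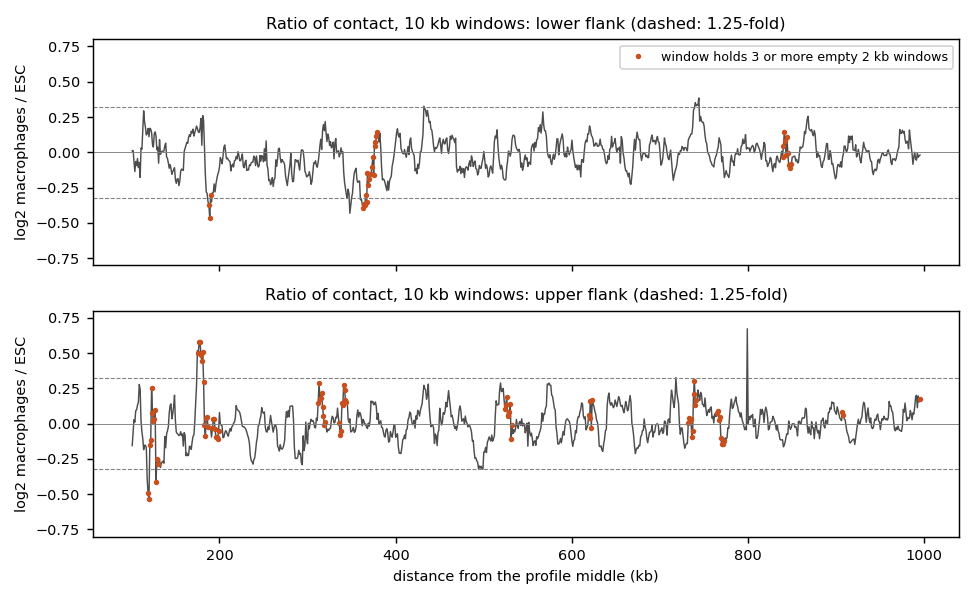
Log2 ratio of macrophage over ESC contact in 10 kb windows, each relative to its far median (y axis), against distance from the profile middle (x axis, kb), lower flank on top and upper flank below; dashed lines mark a difference of 25% and orange points windows with 3 or more empty 2 kb windows. The run at 175 to 181 kb reaches a log2 ratio of 0.58 and the single position at 799 kb 0.67.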

How the data were processed

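The deposited values are a contact signal of 4C-seq in mm9, 1 library per group, with 3 columns for each of 48 window widths from 2 to 49 kb at 2001 positions 1 kb apart. The submitters' processing notes name Bowtie2 2.0.1 and CASAVA 1.4, without roles. The program behind the smoothed profiles was not given in the sources used here. The authors' lower bound is treated as a score because it can fall below 0. Window widths and the meaning of the columns were read from the values. Windows at exactly 0 in both libraries were left out. Main values use no pseudocount. The positions and lists were chosen with earlier results of these data known. Named regions were up to 5 local maxima and 3 local minima per flank, and up to 3 longest runs of 5 or more positions past 25% per direction. Python 3.11.15, NumPy 2.4.6, SciPy 1.17.1, pandas 2.3.3 and Matplotlib 3.10.9 were used; functions were tested on simulated data. No sequence is printed, since no mm9 genome was used here. The Tnfaip3 profiles served for comparison only.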

Additional observations from a re-analysis of the deposited data

How the results depend on the processing

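The files give no read depth. No replicate could be left out, as groups have 1 library, and the alternatives show dependence on processing only. A value counted as moved past 10% for a level, 0.1 for a log2 ratio or coefficient, 0.05 for a slope and 1.5 times for a count. Of 154 alternative values over the flanks, 18 moved and the rest stayed within these limits. Some values near 0 changed sign, within the limits except for the lower-flank log2 ratio as deposited: the lower-flank slope in macrophages became 0.0076 in 5 kb windows, 0.0053 in 20 kb windows and 0.0067 from the highest window, and the upper-flank log2 ratio became -0.0070, -0.0098 and -0.0072 in 5, 20 and 49 kb windows. The log2 ratio of upper over lower flank in ESC became 0.0026, 0.0071 and 0.017 in these windows and 0.00059 from the highest window. Values as deposited gave flank medians of 0.105 in both flanks of ESC and 0.226 and 0.229 in the lower and upper flank of macrophages, median log2 ratios of 1.12 and 1.14, and 895 positions of each flank past 1.5-fold in macrophages, because each library is then relative to its own highest window. Beyond 200 kb the slope of the lower flank in ESC was -0.074. The count past 1.5-fold in macrophages in the upper flank was 0 in 20 kb and 49 kb windows and at 2-fold, and 3 after division by the mean; the count for ESC there was 5 in 5 kb windows. At 25% the counts were 6 and 14 in the lower and 9 and 4 in the upper flank for macrophages and ESC. With the line of macrophage on ESC contact removed, added after the data were seen like the broad maxima, the non-overlapping windows and the split by empty windows, 0 positions of the lower flank passed 25%. That line was fitted to the same positions, which in part sets this count.

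Of the alternative values for the named regions and runs, 19 stayed, 76 moved and 10 reversed. The maximum at 129337157 became 0.575 in ESC and 0.745 in macrophages, and that at 129273157 0.538 in ESC, in 5 kb windows. The minimum at 129672157 became 1.09 and 1.05 in 49 kb windows. That at 129466157 became 1.01 and 1.02 in 20 kb and 1.08 and 1.05 in 49 kb windows. The mean log2 ratio of the run at 129328157 became -0.013 in 49 kb windows. The cause was not tested.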

Other observations

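In 2 kb windows, 21 positions of the flanks differed at least 2-fold between the libraries, 19 of them higher in ESC and 2 higher in macrophages. Of 861 measured positions in the lower flank, 9 were higher in ESC and 0 in macrophages. Of 822 in the upper flank, 10 and 2 were. Within 100 kb of the middle, 4 of 183 positions were higher in ESC and 1 in macrophages. In all 21 the higher library was itself below its far level. The largest ratios were -5.19 on the log2 scale at 129698157, with 0.265 in ESC and 0.00725 in macrophages, and 4.22 at 129896157, with 0.00885 in ESC and 0.165 in macrophages. At 128718157 the values were 0.174 in ESC and 0.00659 in macrophages, next to the lower-flank dip at 128721157. The same pair of values, 0.0198 in ESC and 0.00691 in macrophages, was listed at 128405157, 128747157 and 129675157. Of the 21, 129727157 is the centre of a named minimum of the upper flank, with 0.0122 in ESC and 0.00604 in macrophages in 2 kb windows, and 128411157 lies inside the lower-flank run 740 to 744 kb away, with 0.0131 and 0.00537. The other positions given here were chosen after their values were seen.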
